A study of Homo sapiens with 8 samples.

Results

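The genes described here are 69 protein-coding genes whose transcripts accumulated when MEG-01 cells were given PMA and accumulated less when Ceefourin 2 was given with it. They were chosen on the measured values themselves. A gene had to average above 0.1 TPM in untreated cells, where TPM is a transcript level scaled for transcript length and so that every library sums to the same total. It had to average at least 3 TPM with PMA and at least 2 times its untreated mean. With both agents it had to average at most 0.6 times its PMA mean, with both of those libraries below both PMA libraries. Of 60754 gene rows, 20004 were protein-coding, 958 of those met the PMA part of the rule, and 69 of the 958 (7.20%) met all of it.

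MEG-01 is an established human megakaryoblastic leukaemia line. PMA, phorbol 12-myristate 13-acetate, is a plant-derived phorbol ester and switches on protein kinase C, and Ceefourin 2 is an inhibitor of the membrane exporter ABCC4 (MRP4). RNA was sequenced from 4 groups of 2 libraries: untreated cells, cells with 100 nM PMA, cells with 100 nM PMA plus 20 µM Ceefourin 2, and cells with Ceefourin 2 alone, with treatments of 48 h. At what dose Ceefourin 2 was used by itself, and whether untreated cells received vehicle, the sources used here do not say. No label says that the libraries of a group came from separate cultures, so the p-values measure the spread between these libraries, which may be technical. The cells are 1 leukaemic line, and PF4 and TREML1, which platelets carry in quantity, stayed below 1 TPM in every library while ITGA2B lay between 296 and 825 TPM.

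Phorbol esters take the place of diacylglycerol, the natural activator of protein kinase C, and push megakaryoblastic lines toward larger, adherent cells that make platelet proteins. ABCC4 exports cyclic AMP, cyclic GMP, prostanoids and other organic anions, and in platelets it sits in the plasma membrane and in dense granules. Cyclic AMP and cyclic GMP restrain platelet activation through protein kinase A and protein kinase G, and a range of genes in blood cells respond to them.

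The promoters of 4 genes are shown because the genes differ in kind: FCER1A and CCL23 had the lowest ratios among genes of at least 10 TPM with PMA that have an entry in the RefSeq promoter table (GRCh38.p14), and SELP and PLEK, picked after their values were seen, encode platelet proteins. Each runs 5′ to 3′ up to the RefSeq start or, where an annotated exon (GENCODE v29) reached into the 250 bases before it, up to that exon. Capitals mark matches, on either strand, to the GATA letters AGATAA, the AP-1 letters TGANTCA, the RUNX letters TGTGGT or the TATA letters TATAAA. The promoters lie at chr1:159302086-159302305 (plus strand), chr17:36017973-36018222 (minus strand), chr1:169630194-169630374 (minus strand) and chr2:68365032-68365172 (plus strand). The FCER1A window lies inside the span that GENCODE v29 gives that gene, 159289714 to 159308224.
FCER1A: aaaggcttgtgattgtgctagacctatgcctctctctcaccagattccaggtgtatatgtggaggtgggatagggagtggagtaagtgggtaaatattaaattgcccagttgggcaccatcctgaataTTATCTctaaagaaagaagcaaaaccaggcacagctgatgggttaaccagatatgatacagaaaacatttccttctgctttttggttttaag
CCL23: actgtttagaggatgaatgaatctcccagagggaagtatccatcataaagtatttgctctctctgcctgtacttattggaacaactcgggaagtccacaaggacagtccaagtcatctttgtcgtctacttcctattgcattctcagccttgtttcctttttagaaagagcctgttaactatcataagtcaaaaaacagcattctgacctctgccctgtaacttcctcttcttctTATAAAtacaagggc
SELP: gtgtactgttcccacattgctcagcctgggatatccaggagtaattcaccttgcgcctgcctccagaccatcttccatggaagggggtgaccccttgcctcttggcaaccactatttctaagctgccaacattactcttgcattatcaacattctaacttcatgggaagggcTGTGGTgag
PLEK: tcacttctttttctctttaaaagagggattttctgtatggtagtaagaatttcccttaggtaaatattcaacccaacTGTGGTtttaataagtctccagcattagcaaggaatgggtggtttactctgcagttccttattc
The FCER1A window held TTATCT, which is the GATA motif read on the other strand, at 122 to 117 bases before the start. The CCL23 window held TATAAA at 15 to 10 bases before it. The RUNX motif stood at 78 to 73 bases in SELP and at 173 to 168 bases in PLEK, and PLEK also held the NF-kB letters GGGANTTTC at 226 to 218 bases. The table covered 47 of the 69 genes, and motifs were searched in the 250 bases before the start on both strands. TGTGGT was found in 10 of 47 windows (21.3%), against 10.9% of all 27305 promoters and 54 of 664 (8.13%) of the other PMA-induced genes with an entry. The 10 genes were AQP1, COLQ, KCNA3, PDE5A, PLEK, PRR5L, RGS1, SELP, TGM5 and VWA7. The core letters TGACG of the cyclic AMP response element were found in 3 windows (6.38%, against 21.7% of all promoters), and the full site TGACGTCA in none of the 47 (1.77% of all). AGATAA was found in 6.38% against 9.37%, the AP-1 letters TGANTCA in 8.51% against 6.60%, and TATAAA in 14.9% against 11.1%. The remaining motifs were the ETS letters CCGGAA (17.0% against 14.8%), GGGANTTTC (2.13% against 1.15%), the E-box CANNTG (53.2% against 62.2%), the xenobiotic response letters GCGTG (23.4% against 31.9%) and the STAT letters TTCNNNGAA (6.38% against 6.78%). Among the other PMA-induced genes, TGACG was found in 28.0%, TGACGTCA in 2.41%, AGATAA in 6.02%, TGANTCA in 6.78% and TATAAA in 9.94%. In those same genes CCGGAA was found in 16.3%, GGGANTTTC in 2.56%, CANNTG in 55.7%, GCGTG in 40.1% and TTCNNNGAA in 5.72%. TGACGTCA contains TGACG, and these matches describe letters in a window and not sites of binding.

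The 8 libraries held between 44430292 and 89950886 expected counts. Mitochondrially encoded transcripts took 2.55% to 3.94% of counts in the 4 libraries without PMA, 9.61% and 4.53% in PMA replicates 1 and 2, and 8.32% and 4.94% with both agents, so replicate 1 stood apart in both PMA groups. PMA replicate 2 lay above replicate 1 for 57 of the 69 genes (median ratio 1.23), against 596 of the 958 PMA-induced genes (median ratio 1.06), and the part of the mitochondrial share in this was not tested. ABCC4, the target of the inhibitor, stood at 90.8 and 74.7 TPM in untreated cells, 129 and 117 with PMA, 149 and 134 with both agents, and 112 and 92.5 with Ceefourin 2 alone. An inhibitor of the protein need not change its transcript, so these values check no label.

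The 69 genes spanned a wide range of levels after PMA, from 3.13 TPM (IL17RE) to 601 TPM (MYL4), with a median of 14.6 TPM. PMA means were at or above 100 TPM in 8 genes and below 10 TPM in 28. The median rise over untreated cells was 7.26-fold, with 30 genes rising at least 10-fold and 24 less than 4-fold. With Ceefourin 2 added, the ratio to PMA alone ran from 0.118 (SELP) to 0.59 (SLCO2B1), with a median of 0.448. It was at most 0.25 in 10 genes, above that and up to 0.4 in 10, up to 0.5 in 27, and up to 0.6 in 22. These values chose the genes and are given as description. Across all 958 PMA-induced genes the median ratio was 1.02. Just inside the limit of 0.6 stood IL12A (0.58), RIN3 (0.587) and SLCO2B1 (0.59), and just outside it CD36 (0.6004), TMSB4X (0.6006) and BTBD19 (0.6015). A further 6 genes had a ratio within the limit but overlapping libraries, among them GP9 and the interferon-stimulated IFI27 and IFI6.

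**Figure D1:**
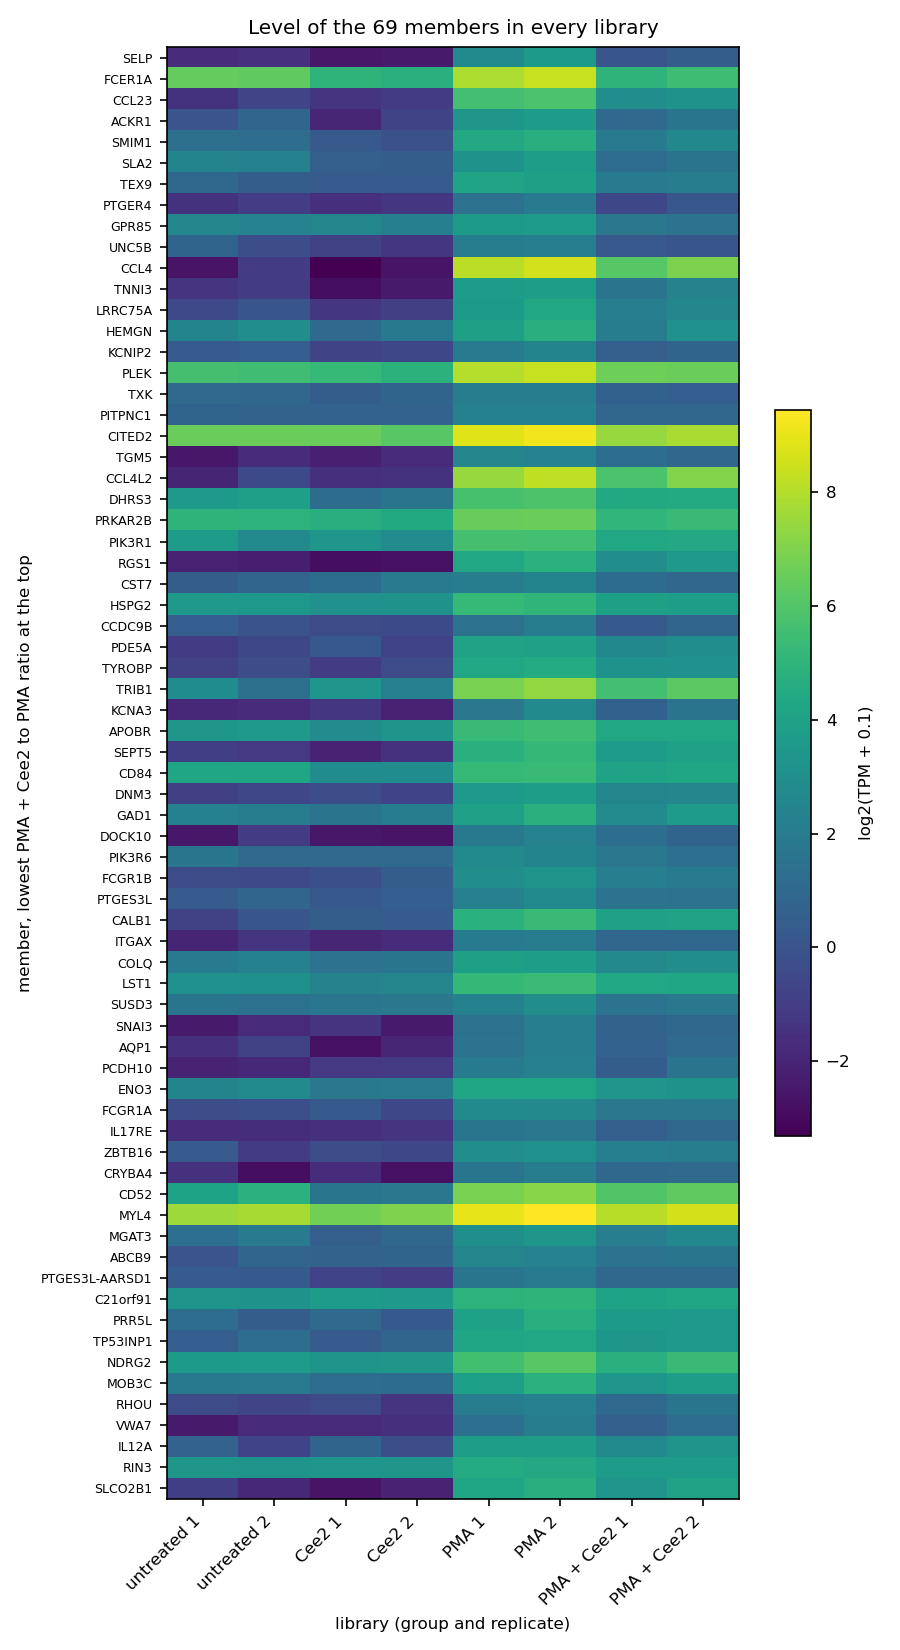
Level of each of the 69 genes in each of the 8 libraries as log2(TPM + 0.1), with genes ordered from the lowest (SELP, 0.118) to the highest (SLCO2B1, 0.59) ratio of PMA plus Ceefourin 2 to PMA. The PMA columns are the brightest in each row. The rule asked for this against untreated cells and against both agents, but it used no library of Ceefourin 2 alone. The 2 Ceefourin 2 columns are darker than the untreated columns in rows such as SELP, DHRS3 and CD52.

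With both agents most of the 69 genes stood above their untreated level, but by less than with PMA alone. The share of the PMA rise that was kept had a median of 32.2%, against 103% over all 958 PMA-induced genes. It was under 25% in 25 genes, from 25% to 50% in 37 and above that in 7, with SLCO2B1 at 58.5%, VWA7 at 55.8% and IL12A at 54.8%. The rule's limit on the level with both agents also capped this share in every chosen gene. The low median and its gap from the 958 genes thus follow from the choice of genes and are given as description. In 59 genes both libraries with both agents lay above both untreated libraries. In 5 genes they lay below, so the level with PMA plus Ceefourin 2 was under the resting level: FCER1A, SLA2, GPR85, TXK and CD84. UNC5B and HEMGN also had a lower mean than in untreated cells, with overlapping libraries.

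**Figure D2:**
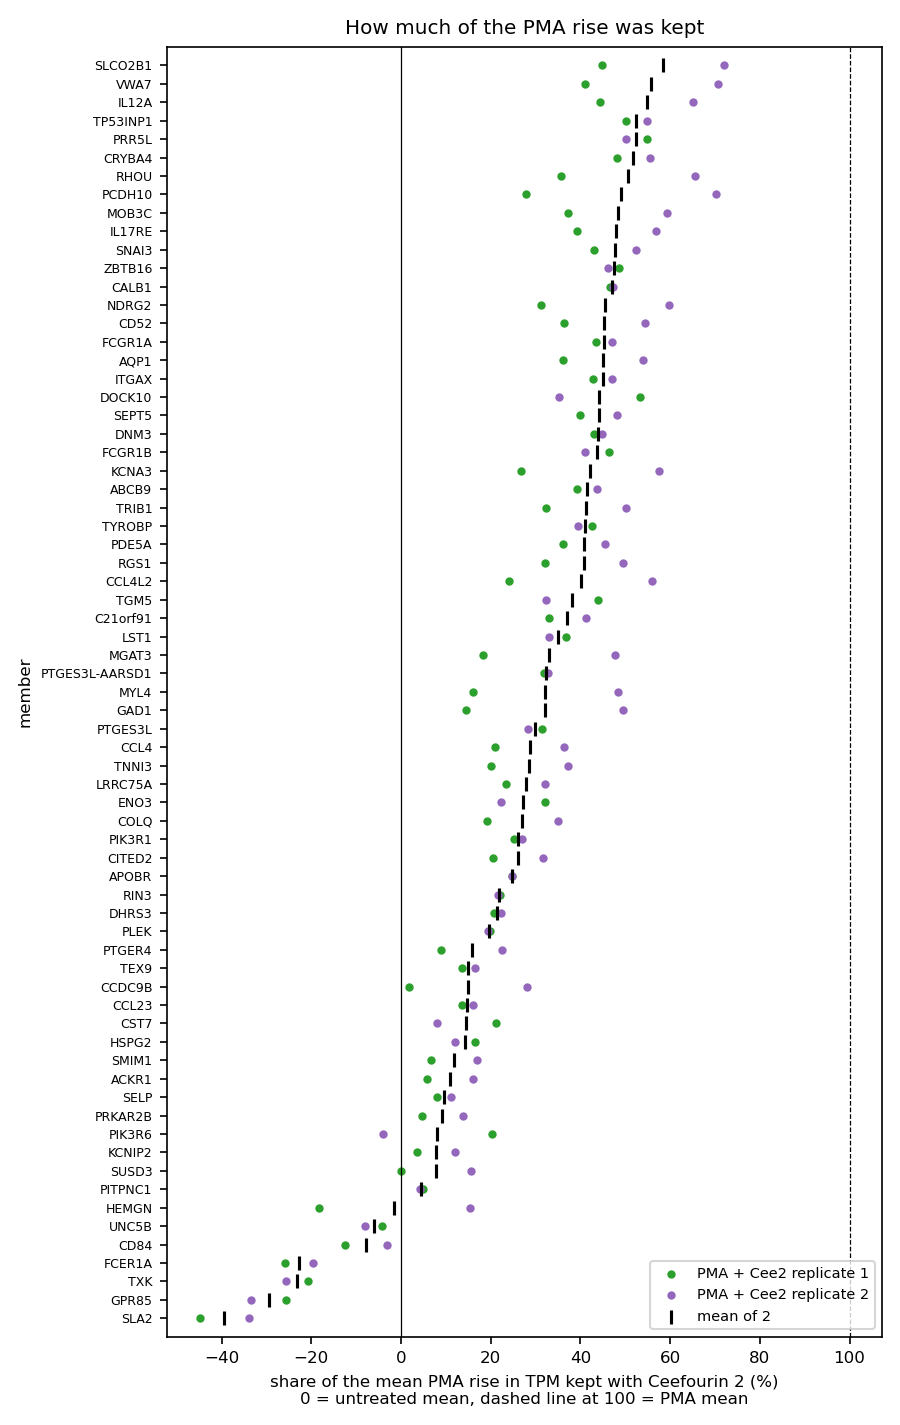
Share of the mean PMA rise in TPM that remained with Ceefourin 2 added, in percent, for each of the 69 genes, with green and purple points for replicates 1 and 2 and a black tick for their mean. The means run from -39.4% (SLA2) to 58.5% (SLCO2B1), and no tick reaches the dashed line at 100, the PMA mean. The rule that chose the genes required every tick to lie below that line.

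In edgeR's quasi-likelihood test, all 69 genes were called higher with PMA than in untreated cells, where 27.9% of 17314 tested genes were called higher. With both agents against PMA, 39 of 69 were called lower, where 0.913% of tested genes were called lower. Both comparisons were used to choose the genes, so nothing is read from these counts. The count of 39 was 22 and 12 without PMA replicates 1 and 2, 5 and 17 without replicates 1 and 2 of PMA plus Ceefourin 2, and 1 without replicate 1 of both groups. Against Ceefourin 2 alone, PMA plus Ceefourin 2 was called higher in 65 of 69 genes, where 28.0% of tested genes and 882 of 888 (99.3%) of the other PMA-induced genes were called higher. The PMA plus Ceefourin 2 libraries also served to choose the genes, so nothing is read from this count either. GPR85 alone was called lower in that comparison, a call that was lost without PMA replicate 1 or 2, without PMA plus Ceefourin 2 replicate 2, or without Ceefourin 2 replicate 1.

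Because the libraries carry replicate numbers, the ratio limits could be applied to 1 replicate number and the ratios read in the other. When the ratio limits were applied to replicate 1 of each group alone, 79 genes were chosen, and their median ratio in replicate 2 was 0.478 against 0.488 in replicate 1. In replicate 2, 75 of the 79 were below 1 and 54 (68.4%) were at or below 0.6, against 73 of 916 (7.97%) of all genes PMA-induced in replicate 1. When replicate 2 did the choosing, 91 genes were chosen, and their median ratio was 0.528 in replicate 1 against 0.442 in replicate 2. In replicate 1, 90 of the 91 were below 1 and 64 (70.3%) were at or below 0.6, against 87 of 1029 (8.45%). These libraries are the same ones the rule for the 69 genes used, so the values describe how the replicates resemble each other and support nothing about the 69.

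Surface receptors and adaptors of immune cells made up 9 of the 69 genes, with FCER1A, the alpha chain of the high-affinity IgE receptor, showing the lowest ratio among them. FCER1A, on chromosome 1 from 159289714 to 159308224 (GRCh38), stood at 87.1 and 79.6 TPM in untreated cells, 233 and 331 with PMA, 31.8 and 44.4 with PMA plus Ceefourin 2, and 31.6 and 27.2 with Ceefourin 2 alone. PMA alone gave a 3.38-fold higher mean, whereas both libraries with both agents lay below the untreated ones and only just above those of Ceefourin 2 alone. CD84, a SLAM-family receptor found on platelets and leukocytes (chromosome 1 from 160541095 to 160579516), stood at 18.9 and 18.7 TPM in untreated cells, 37.3 and 39.6 with PMA, 16.3 and 18.2 with PMA plus Ceefourin 2, and 7.35 and 7.31 with Ceefourin 2 alone. The PMA libraries were the highest and those of Ceefourin 2 alone the lowest, and both libraries with both agents lay just below the untreated ones. CD52, a small glycoprotein anchored to lipid (chromosome 1 from 26317957 to 26320523), stood at 17.1 and 28.5 TPM in untreated cells, 118 and 145 with PMA, 62.1 and 81.6 with PMA plus Ceefourin 2, and 2.99 and 3.36 with Ceefourin 2 alone. The 2 Ceefourin 2 libraries were the lowest by far, and CD52 kept 45.3% of its PMA rise.

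The signalling adaptor TYROBP (DAP12), which pairs with activating receptors, had almost no transcript without PMA and stood at 19.8 and 22.8 TPM with PMA and 9.41 and 8.78 with both agents, against 0.45 and 0.72 in untreated cells and 0.36 and 0.67 with Ceefourin 2 alone. FCGR1A, the high-affinity IgG receptor, stood at 6.61 and 6.26 TPM with PMA and 3.21 and 3.42 with both agents, against 0.71 and 0.77 in untreated cells and 1.11 and 0.58 with Ceefourin 2 alone, and its near copy FCGR1B at 7.9 and 9.51 TPM with PMA and 4.37 and 3.94 with both agents, against 0.67 and 0.6 in untreated cells and 0.77 and 1.24 with Ceefourin 2 alone. RSEM divides reads that fit both copies, so their separate levels are uncertain. LST1, a leukocyte transmembrane adaptor encoded in the major histocompatibility complex, stood at 8.56 and 8.42 TPM in untreated cells, 35.9 and 41.4 with PMA, 19.6 and 18.5 with PMA plus Ceefourin 2, and 5.16 and 5.55 with Ceefourin 2 alone. Its Ceefourin 2 libraries lay below its untreated libraries, as for FCER1A, CD84 and CD52. The integrin chain ITGAX (CD11c) reached only 3.56 and 3.97 TPM with PMA and 1.74 and 1.89 with both agents, and IL17RE, a receptor subunit for an interleukin-17 cytokine, 3.06 and 3.2 and 1.36 and 1.87. Over the 9 genes the median ratio was 0.482. Markers of other blood cells bear on these genes. Of 12 monocyte and macrophage markers, 10 stayed under 1 TPM in every library, with CD163, MARCO and FCN1 at 0, and their summed level was 52.9 to 58.8 TPM in untreated cells, 23.3 to 25.01 with PMA, 21.6 to 22.5 with both agents and 32.5 to 33.2 with Ceefourin 2 alone, mostly LYZ and ITGAM. Of 11 mast cell and basophil markers, CMA1 was at 0 throughout, and the summed level, FCER1A included, was 474 to 529 TPM in untreated cells, 1220 to 1254 with PMA, 791 to 942 with both agents and 497 to 505 with Ceefourin 2 alone. Among its most abundant members, SIGLEC6 with both agents stood apart from FCER1A, HDC and ENPP3, which were lower than with PMA. ENPP3 stood at 51.87 and 52.6 TPM in untreated cells, 81.25 and 89.97 with PMA, 49.87 and 58.9 with both agents, and 50.94 and 53.4 with Ceefourin 2 alone. The scarcer CPA3, TPSAB1 and TPSB2 also had both libraries with both agents below both PMA libraries. SIGLEC6 stood at 101 and 104 TPM in untreated cells, 532 and 487 with PMA, 664 and 508 with both agents, and 151 and 190 with Ceefourin 2 alone, whereas HDC, the histamine-forming enzyme, stood at 261 and 202 TPM in untreated cells, 352 and 324 with PMA, 183 and 165 with both agents, and 240 and 202 with Ceefourin 2 alone. Of the 10 markers tested, edgeR called 2 lower and 0 higher with both agents than with PMA (median log2 fold change -0.91). FCER1A was among them, and the rule chose it on that comparison. With Ceefourin 2 alone edgeR called 2 of the markers lower, FCER1A itself among them. The part of such cells in the FCER1A result was not tested. In bulk RNA, fewer cells of a kind and less RNA per cell cannot be told apart.

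The chemokines CCL23, CCL4 and CCL4L2 stayed below 1 TPM in every library without PMA. CCL23, which binds the receptor CCR1 (chromosome 17 from 36013056 to 36017968), stood at 0.26 and 0.54 TPM in untreated cells, 49.3 and 57.8 with PMA, 7.57 and 8.97 with PMA plus Ceefourin 2, and 0.29 and 0.37 with Ceefourin 2 alone. The untreated level rested on 4 and 10 expected counts and the PMA level on 1078 and 995, and with both agents CCL23 kept 14.8% of its rise. CCL4 (MIP-1 beta, chromosome 17 from 36103590 to 36105621) stood at 0.06 and 0.36 TPM in untreated cells, 284 and 378 with PMA, 69.7 and 120 with PMA plus Ceefourin 2, and 0 and 0.06 with Ceefourin 2 alone. Its untreated libraries held 1 and 7.2 expected counts, so no fold is given, and its ratio with both agents was 0.287. CCL4L2, a near-identical copy whose reads cannot be cleanly told from those of CCL4, stood at 180 and 298 TPM with PMA and 57.8 and 134 with both agents, against 0.15 and 0.63 in untreated cells and 0.23 and 0.26 with Ceefourin 2 alone. The ratio of replicate 2 to replicate 1 was 1.73 for CCL4 and 2.32 for CCL4L2 with both agents, and 1.33 and 1.65 with PMA. IL12A, the alpha subunit of interleukin-12, stood at 14.2 and 14 TPM with PMA and 6.82 and 9.54 with both agents, against 1.51 and 0.5 in untreated cells and 1.65 and 0.71 with Ceefourin 2 alone, near the limit of the rule. ACKR1, the Duffy antigen, which binds chemokines without signalling through G proteins (chromosome 1 from 159203307 to 159206500), stood at 0.94 and 1.67 TPM in untreated cells, 10.7 and 13.5 with PMA, 1.94 and 3.03 with PMA plus Ceefourin 2, and 0.16 and 0.52 with Ceefourin 2 alone. ACKR1 libraries with both agents lay just above the untreated ones, and those with Ceefourin 2 alone lay below.

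ACKR1 and SMIM1, which carries the Vel blood group, are also genes of red cells. SMIM1 stood at 2.54 and 2.28 TPM in untreated cells, 21 and 26.9 with PMA, 3.84 and 6.07 with PMA plus Ceefourin 2, and 1.08 and 0.8 with Ceefourin 2 alone, a pattern close to that of ACKR1. The summed level of 15 erythroid markers, these 2 included, was 10039 to 10945 TPM in untreated cells, 31920 to 38428 with PMA, 26322 to 33394 with both agents and 4943 to 5297 with Ceefourin 2 alone, most of it HBG2. Of the 14 markers tested in edgeR, 9 were called lower with Ceefourin 2 alone, and the part of this in the ACKR1 and SMIM1 values was not tested.

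SELP, P-selectin, the alpha-granule adhesion receptor that platelets bring to their surface on activation (chromosome 1 from 169588849 to 169630193), had the lowest ratio of the whole set. It stood at 0.21 and 0.25 TPM in untreated cells, 6.82 and 12.3 with PMA, 0.98 and 1.27 with PMA plus Ceefourin 2, and 0.08 and 0.09 with Ceefourin 2 alone. The PMA replicates were well apart from each other, but both lay far above the libraries with both agents, which kept 9.59% of the rise. The summed level of 12 megakaryocyte and platelet markers, SELP included, was 368 to 375 TPM in untreated cells, 1190 to 1350 with PMA, 1264 to 1352 with both agents and 466 to 541 with Ceefourin 2 alone, most of it ITGA2B, ITGB3 and GP6. Of the 10 markers tested, edgeR called only SELP lower with both agents than with PMA. The rule chose SELP on this comparison, so nothing is read from that call. Among the scarcer markers PPBP stood at 4.83 and 4.93 TPM with PMA and 1.58 and 1.78 with both agents, and GP1BA at 13.3 and 18.3 and at 9.24 and 10.3. The sum thus stayed level between these groups while SELP and some scarcer markers were lower, and their part in the SELP result was not tested. PTGER4, the prostaglandin E2 receptor EP4, which raises cyclic AMP, stood at 2.58 and 3.92 TPM with PMA and 0.59 and 0.99 with both agents, from 0.26 and 0.4 in untreated cells. GPR85, an orphan G protein coupled receptor, stood at 5.74 and 4.92 TPM in untreated cells, 12.5 and 13 with PMA, 3.42 and 2.84 with PMA plus Ceefourin 2, and 5.65 and 4.44 with Ceefourin 2 alone. Both libraries with both agents lay below all 6 others, while Ceefourin 2 alone overlapped the untreated level.

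**Figure D3:**
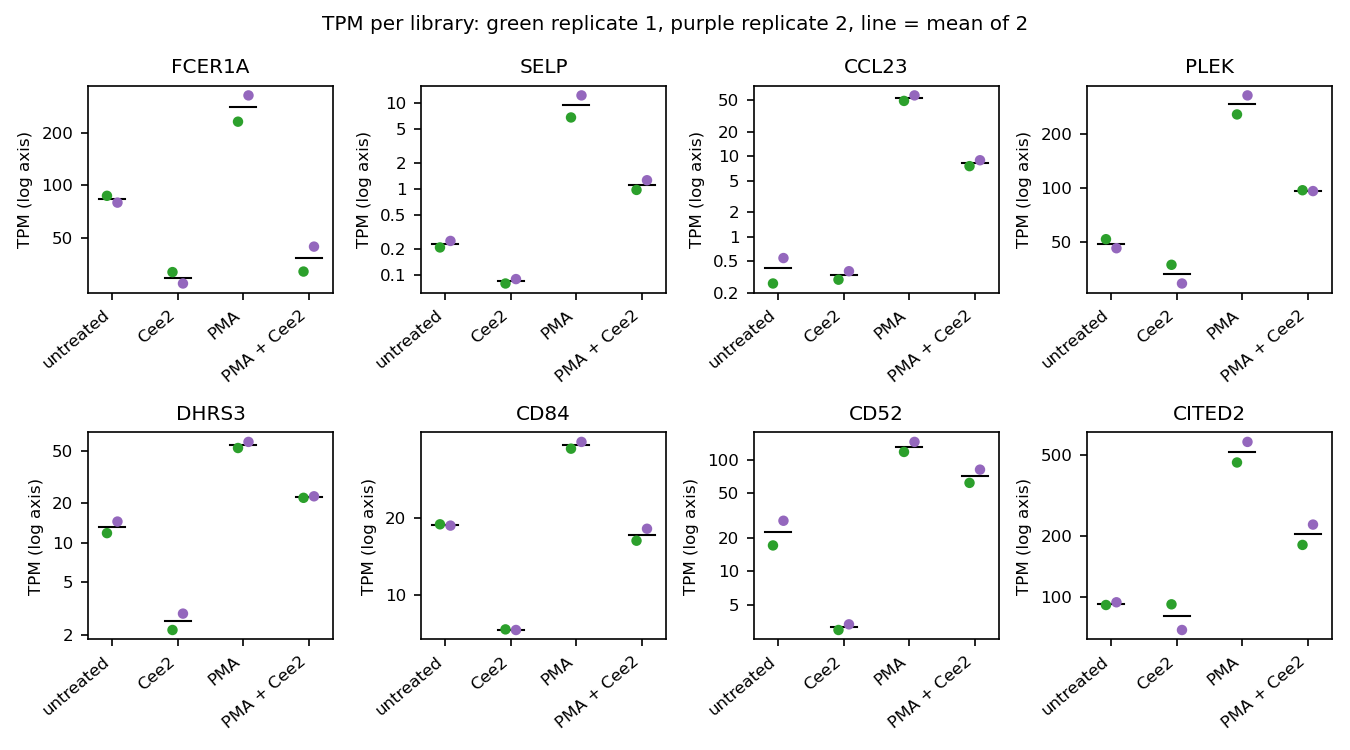
TPM of 8 of the genes in each library on a log axis, with green points for replicate 1, purple points for replicate 2 and a line at the mean of 2. FCER1A and CD84 with both agents lie below their untreated level, PLEK, CITED2, CCL23, SELP, DHRS3 and CD52 lie between untreated and PMA, and DHRS3, CD84, CD52, FCER1A, SELP and PLEK with Ceefourin 2 alone lie below untreated.

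Intracellular signalling proteins were the largest group, with 15 genes and a median ratio of 0.426. PLEK, pleckstrin, the main protein kinase C substrate of platelets (chromosome 2 from 68365173 to 68397453), stood at 52.1 and 46.4 TPM in untreated cells, 257 and 327 with PMA, 97.5 and 96.4 with PMA plus Ceefourin 2, and 37.6 and 29.6 with Ceefourin 2 alone. The 2 libraries with both agents were almost equal and kept 19.6% of the rise. SLA2, an adaptor that dampens antigen receptor signalling, stood at 5.39 and 4.77 TPM in untreated cells, 8.99 and 13.8 with PMA, 2.25 and 2.94 with PMA plus Ceefourin 2, and 1.37 and 1.28 with Ceefourin 2 alone. It had the most negative share of the rise kept, -39.4%, and both groups with the inhibitor lay below both groups without it. TXK, a TEC-family tyrosine kinase, was also under its resting level with both agents, at 1.44 and 1.33 TPM against 2.02 and 1.77 in untreated cells and 4.07 and 4.12 with PMA.

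Cyclic nucleotide signalling was represented by PRKAR2B and PDE5A. PRKAR2B, the RII-beta regulatory subunit of protein kinase A (chromosome 7 from 107044649 to 107161811), stood at 32.1 and 30.5 TPM in untreated cells, 88.3 and 94.8 with PMA, 34.1 and 39.6 with PMA plus Ceefourin 2, and 25.4 and 21.8 with Ceefourin 2 alone. Only 9.19% of its rise was kept. PDE5A, the cyclic GMP phosphodiesterase inhibited by sildenafil, stood at 16.5 and 16 TPM with PMA and 6.18 and 7.65 with both agents, against 0.37 and 0.58 in untreated cells and 1.04 and 0.49 with Ceefourin 2 alone, and kept 40.8%. Phosphoinositide signalling was represented by PIK3R1, PIK3R6 and PITPNC1. PIK3R1, the p85-alpha regulatory subunit of class I phosphoinositide 3-kinase, stood at 12.6 and 6.66 TPM in untreated cells, 50.4 and 49.95 with PMA, 19.9 and 20.6 with PMA plus Ceefourin 2, and 10.1 and 7.1 with Ceefourin 2 alone, and PIK3R6, an adaptor of the gamma isoform, at 6.63 and 5.27 TPM with PMA and 3.25 and 2.42 with both agents, against 3.06 and 2.06 in untreated cells and 1.95 and 1.98 with Ceefourin 2 alone. PITPNC1, a phosphatidylinositol transfer protein, returned almost to its untreated level, at 4.73 and 4.71 TPM with PMA, 1.75 and 1.73 with both agents and 1.65 and 1.55 untreated.

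RGS1, which speeds GTP hydrolysis by G protein alpha subunits, stood at 20.4 and 28.4 TPM with PMA and 7.89 and 12.1 with both agents, against 0.13 and 0.11 in untreated cells and 0.04 and 0.05 with Ceefourin 2 alone. Its untreated and Ceefourin 2 libraries held 2 to 6 expected counts each, so no fold between them is given. TRIB1, a pseudokinase that directs C/EBP-alpha to degradation, was among the most abundant, at 119 and 167 TPM with PMA and 49.3 and 74.2 with both agents, against 7.21 and 2.55 in untreated cells and 10.2 and 4.59 with Ceefourin 2 alone. Its untreated replicates differed widely and overlapped those of Ceefourin 2 alone. The regulators of small GTPases included RIN3, an exchange factor for RAB5, at a ratio of 0.587, and DOCK10, an exchange factor for CDC42 and RAC, at 0.471. RIN3 had the smaller PMA rise of the pair, with 22.9 and 20.9 TPM with PMA and 12.9 and 12.8 with both agents, against 10.9 and 9.73 in untreated cells and 10.4 and 10.8 with Ceefourin 2 alone. PRR5L, which binds the mTORC2 complex, had a ratio of 0.565, and MOB3C, of the MOB family of kinase regulators, 0.571. Both had PMA replicates that differed by more than the gap between PMA replicate 1 and the libraries with both agents, at 15.8 and 25.9 and 12.2 and 11.3 TPM for PRR5L and 14.7 and 28.7 and 10.4 and 14.4 TPM for MOB3C.

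Among 5 transcription regulators, CITED2, a CBP/p300 cofactor that competes with HIF1A (chromosome 6 from 139371807 to 139374620), was the most abundant and stood at 91.4 and 94.2 TPM in untreated cells, 458 and 578 with PMA, 180 and 227 with PMA plus Ceefourin 2, and 92.1 and 68.9 with Ceefourin 2 alone. The groups with PMA were fully apart, and Ceefourin 2 alone overlapped the untreated level. HEMGN, hemogen, a nuclear protein of blood progenitors and red cell precursors, stood at 5.42 and 7.97 TPM in untreated cells, 15.2 and 25.6 with PMA, 4.19 and 8.8 with PMA plus Ceefourin 2, and 1.97 and 3.51 with Ceefourin 2 alone. Its libraries with both agents straddled the untreated ones, and both Ceefourin 2 libraries lay below them. ZBTB16 (PLZF) stood at 7.58 and 8.85 TPM with PMA and 4.39 and 4.21 with both agents, SNAI3, of the Snail family, at 2.66 and 4.25 and 1.57 and 1.88, and TP53INP1, a p53-induced stress protein, at 18.5 and 20.3 and 10.6 and 11.5. These last genes kept 47.4% to 52.5% of their rise.

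Contractile, septin and dynamin genes formed a small cytoskeletal group. MYL4, an embryonic and atrial myosin light chain (chromosome 17 from 47200446 to 47223679), was the most abundant gene of all 69 and stood at 190 and 218 TPM in untreated cells, 502 and 699 with PMA, 268 and 396 with PMA plus Ceefourin 2, and 106 and 126 with Ceefourin 2 alone. Each group was separate from the next, in the order PMA, both agents, untreated, Ceefourin 2 alone. TNNI3, cardiac troponin I, stood at 12.8 and 13.8 TPM with PMA and 2.92 and 5.14 with both agents, against 0.28 and 0.39 in untreated cells and 0.04 and 0.09 with Ceefourin 2 alone. The Ceefourin 2 values of TNNI3 rested on 1 and 2 expected counts. SEPT5, a septin that restrains granule release in platelets, stood at 27.8 and 35.9 TPM with PMA and 12.9 and 15.5 with both agents, against 0.41 and 0.33 in untreated cells and 0.14 and 0.26 with Ceefourin 2 alone. DNM3, a dynamin found in megakaryocytes, stood at 11.3 and 14 TPM with PMA and 5.71 and 5.94 with both agents, against 0.43 and 0.55 in untreated cells and 0.71 and 0.49 with Ceefourin 2 alone. SEPT5 kept 44.1% of its rise and DNM3 43.9%.

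Matrix and contact genes gave 5 members. UNC5B, a netrin receptor, stood at 1.66 and 0.75 TPM in untreated cells, 4.07 and 4.25 with PMA, 1.08 and 0.97 with PMA plus Ceefourin 2, and 0.47 and 0.3 with Ceefourin 2 alone. The UNC5B level with both agents fell within the range of its untreated replicates. HSPG2, perlecan, a heparan sulphate proteoglycan of basement membranes, stood at 11.9 and 11 TPM in untreated cells, 37 and 32.8 with PMA, 15.3 and 14.3 with PMA plus Ceefourin 2, and 8.58 and 9.01 with Ceefourin 2 alone, and COLQ, the collagen tail of acetylcholinesterase, at 15.4 and 13.8 TPM with PMA and 6.32 and 7.94 with both agents, against 3.9 and 4.83 in untreated cells and 2.84 and 2.97 with Ceefourin 2 alone. TGM5, a transglutaminase, had a ratio of 0.399, and the protocadherin PCDH10 0.509. PCDH10 replicates with both agents were far apart, at 1.27 and 2.96 TPM, against 3.76 and 4.55 with PMA.

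Among 8 channel, transporter and membrane genes, besides SMIM1, KCNIP2 had the lowest ratio. KCNIP2, an accessory subunit of Kv4 potassium channels, stood at 1.15 and 1.3 TPM in untreated cells, 3.61 and 5.39 with PMA, 1.34 and 1.62 with PMA plus Ceefourin 2, and 0.52 and 0.58 with Ceefourin 2 alone. KCNA3, the Kv1.3 channel of lymphocytes and megakaryocytes, stood at 3.29 and 6.63 TPM with PMA and 1.47 and 2.93 with both agents, against 0.17 and 0.21 in untreated cells and 0.31 and 0.14 with Ceefourin 2 alone. APOBR, a receptor for apolipoprotein B-containing particles, stood at 10.9 and 11.6 TPM in untreated cells, 40.2 and 46 with PMA, 19.1 and 19.1 with PMA plus Ceefourin 2, and 7.12 and 9.7 with Ceefourin 2 alone, with the 4 groups separate. CALB1, the calcium-binding protein calbindin, stood at 28.3 and 38.5 TPM with PMA and 16 and 16.2 with both agents, against 0.46 and 0.98 in untreated cells and 1.27 and 1.2 with Ceefourin 2 alone, the reverse order of APOBR between Ceefourin 2 alone and untreated cells. The water channel AQP1 had a ratio of 0.503, the lysosomal peptide transporter ABCB9 0.561 and the organic anion transporter SLCO2B1 0.59. SLCO2B1 nevertheless remained far above its resting level, at 10.2 and 16.2 TPM with both agents against 0.42 and 0.17 in untreated cells.

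Enzymes and an inhibitor made up 5 genes. DHRS3, a retinaldehyde reductase that is itself induced by retinoic acid (chromosome 1 from 12567910 to 12617731), stood at 11.8 and 14.5 TPM in untreated cells, 52.3 and 58.2 with PMA, 21.9 and 22.5 with PMA plus Ceefourin 2, and 2.17 and 2.89 with Ceefourin 2 alone. Ceefourin 2 alone gave the lowest DHRS3 libraries, and PMA plus Ceefourin 2 lay between untreated and PMA. ENO3, the muscle enolase, stood at 5.4 and 6.76 TPM in untreated cells, 18.2 and 19 with PMA, 10.1 and 8.88 with PMA plus Ceefourin 2, and 3.38 and 3.79 with Ceefourin 2 alone, and MGAT3, which adds bisecting N-acetylglucosamine to glycoproteins, at 8.11 and 10.7 TPM with PMA and 4.3 and 6.13 with both agents, against 2.48 and 3.86 in untreated cells and 1.35 and 1.9 with Ceefourin 2 alone. GAD1, a glutamate decarboxylase, had PMA replicates of 15.7 and 27.6 TPM and values of 6.98 and 13 with both agents. CST7, cystatin F, a cathepsin inhibitor of immune cells, stood at 1.25 and 1.71 TPM in untreated cells, 4.09 and 5.4 with PMA, 2.17 and 1.74 with PMA plus Ceefourin 2, and 2.21 and 3.75 with Ceefourin 2 alone, and unlike the enzymes it was higher with Ceefourin 2 alone than untreated.

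The remaining 10 genes have less settled roles. TEX9 had the lowest ratio, at 17.6 and 15.1 TPM with PMA and 3.55 and 4 with both agents, against 1.83 and 1.27 in untreated cells and 1.17 and 1.2 with Ceefourin 2 alone. LRRC75A stood at 12.5 and 19.4 TPM with PMA and 4.35 and 5.67 with both agents, against 0.6 and 0.97 in untreated cells and 0.3 and 0.43 with Ceefourin 2 alone. NDRG2, of the N-myc downstream-regulated family, was the most abundant of these and stood at 48.4 and 71.2 TPM with PMA and 27.3 and 40.8 with both agents, against 12.4 and 12.9 in untreated cells and 9.76 and 10.8 with Ceefourin 2 alone. C21orf91 had 30.2 and 31.9 TPM with PMA and 16.6 and 18.4 with both agents. CCDC9B (ratio 0.424), the crystallin gene CRYBA4 (0.537), SUSD3 (0.496) and VWA7 (0.578) reached at most 7.8 TPM in any library. PTGES3L (0.48) and the readthrough gene PTGES3L-AARSD1 (0.564) overlap on chromosome 17, so their reads are shared and their values are not independent.

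Ceefourin 2 without PMA was the comparison the choice of genes did not rest on, although it shares the untreated libraries with it. Of the 69 genes, 35 had both Ceefourin 2 libraries below both untreated libraries (50.7%), where 16.3% of all tested genes did, and 96 of the other 889 PMA-induced genes (10.8%). Both libraries lay above in 7 genes, where 21.7% of all tested genes did, and the groups overlapped in 27. The median ratio of Ceefourin 2 to untreated TPM was 0.77, against 1.18 for the other PMA-induced genes, and it was at most 0.6 in 23 of the 69 (33.3%) against 35 of 889 (3.94%).

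In edgeR's quasi-likelihood test 5 of the 69 genes were called lower with Ceefourin 2 alone, where 0.722% of 17314 tested genes were called lower. DHRS3 fell 5.19-fold in TPM (log2 fold change -2.35, SE 0.19 and adjusted p = 0.00274 in edgeR), and CD84 fell 2.56-fold (log2 fold change -1.38, SE 0.11 and adjusted p = 0.00274 in edgeR). CD52 fell 7.17-fold (log2 fold change -2.89, SE 0.34 and adjusted p = 0.0112 in edgeR). SLA2 fell 3.83-fold (log2 fold change -1.95, SE 0.24 and adjusted p = 0.0121 in edgeR), and FCER1A fell 2.84-fold (log2 fold change -1.53, SE 0.20 and adjusted p = 0.0138 in edgeR). All 5 had both Ceefourin 2 libraries below both untreated ones. None of the 69 was called higher, where 0.959% of tested genes were. At an unadjusted edgeR p below 0.05, 26 of the 69 were lower and 2 higher, against 1060 and 1294 of all 17314 tested genes. DESeq2 called 15 of the 69 lower and 0 higher, against 330 and 508 over all genes. The median log2 fold change of the 69 was -0.43, against -0.01 over all tested genes and 0.20 over the other PMA-induced genes, of which 11 were called lower and 79 higher of 888. DHRS3 and CD84 were called with each of the 8 libraries left out in turn. With only the untreated and Ceefourin 2 libraries fitted, the calls of DHRS3 (edgeR adjusted p = 0.0522) and CD52 (edgeR adjusted p = 0.0808) were lost and those of CD84, SLA2 and FCER1A were not. The call of CD52 was lost without Ceefourin 2 replicate 1 (edgeR adjusted p = 0.0541), and those of SLA2 and FCER1A without either untreated or either Ceefourin 2 library (highest edgeR adjusted p = 0.0774 and 0.0828). The count of 5 was 3 without untreated replicate 1, 2 without Ceefourin 2 replicate 1 and 3 without Ceefourin 2 replicate 2.

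The genes next in order missed the threshold. They were ENO3 (log2 fold change -0.88, SE 0.17, edgeR adjusted p = 0.0525), UNC5B (-1.63, SE 0.33, edgeR adjusted p = 0.0556), PLEK (-0.59, SE 0.13, edgeR adjusted p = 0.0754), COLQ (-0.59, SE 0.14, edgeR adjusted p = 0.1) and PRKAR2B (-0.43, SE 0.11, edgeR adjusted p = 0.109). All 5 called genes averaged at least 5 TPM in untreated cells, a class that held 19 of the 69 genes. The median log2 fold change was -0.54 in those 19 genes, -0.42 in the 22 genes from 1 to 5 TPM and -0.31 in the 28 below 1 TPM, with 17 negative in each class. Among the other PMA-induced genes, 40 of 467, 27 of 305 and 12 of 116 in the same classes were called higher. In 21 of the 69 genes at least 1 library held fewer than 20 expected counts. SELP, at 0.21 and 0.25 TPM untreated and 0.08 and 0.09 with Ceefourin 2 alone, is in the lowest class (log2 fold change -1.31, SE 0.53, edgeR adjusted p = 0.324). FCGR1A had a Ceefourin 2 to untreated ratio of 1.14 in TPM but a negative log2 fold change in counts (-0.48, SE 0.23, edgeR adjusted p = 0.421), so it has no settled direction. The same held for PDE5A (ratio 1.61, log2 fold change -0.147) and TGM5 (1.10 and -0.123). PTGER4 (0.803 and 0.124), ZBTB16 (0.843 and 0.21) and CRYBA4 (0.897 and 0.248) differed the other way round.

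**Figure D4:**
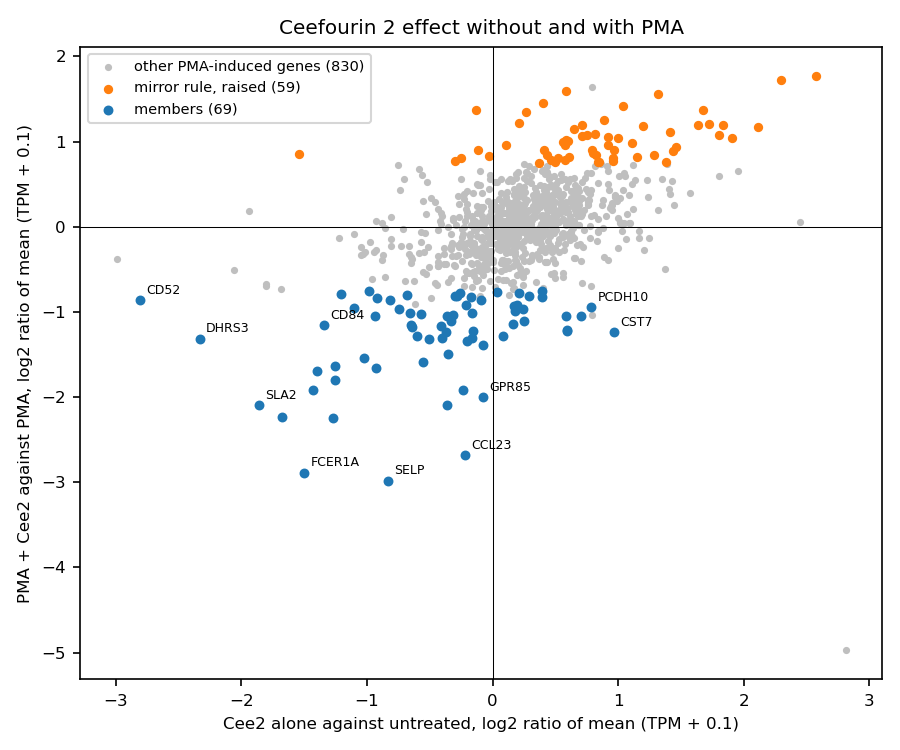
Ceefourin 2 effect without PMA (horizontal axis, log2 ratio of mean TPM + 0.1 to untreated) and with PMA (vertical axis, log2 ratio to PMA alone) for the 69 genes in blue, the 59 genes of the mirror rule in orange and the other PMA-induced genes in grey. The vertical positions of the coloured points were set by the rules, and on the horizontal axis 51 of the 69 blue points lie left of 0, as do 6 of the 59 orange points.

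A mirror rule, asking for at least the inverse of the 0.6 ratio with both libraries above both PMA libraries, found 59 genes. Their median ratio of Ceefourin 2 to untreated was 1.86, against 0.77 for the 69 genes. In edgeR none of the 59 was called lower with Ceefourin 2 alone (2 at an unadjusted p below 0.05) and 19 were called higher. Whether the effect of Ceefourin 2 on a single gene differed with and without PMA was not tested, because the PMA side of that difference was used by the rule.

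Gene lists on platelet, blood cell and signalling biology held 24 of the 69 genes, and the counts below are edgeR calls over each list's tested genes. Of 39 platelet signalling adaptors and kinases, 9 were lower with both agents than with PMA (median log2 fold change -0.31). PLEK and SLA2 belong to the set, while RASGRP2, PTPRC, FYB1, PTPN6, PLCB2, DOK3 and SYK did not meet the rule. With Ceefourin 2 alone 3 of the 39 fell (SLA2, PLCB2 and SLA) and GAB2 rose. Of 29 platelet surface and granule proteins, CLEC1B and SELP were lower and CD9 was higher with both agents, and with Ceefourin 2 alone CD36 fell while GP6, THBS1, ESAM and ITGB3 rose. Of 24 chemokines and chemokine receptors, 20 rose with PMA, and ACKR1, CCL23 and CCL4 were the 3 that were lower with both agents. In edgeR none of the 24 was called with Ceefourin 2 alone, with 1 lower and 5 higher at an unadjusted p below 0.05.

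Of 54 innate immune receptors, TYROBP, CD84 and FCER1A were lower with both agents. With Ceefourin 2 alone CD84 and FCER1A fell, and CLEC11A, CD69, FCGR2A and CD300C rose. Of 36 genes of cyclic AMP and cyclic GMP signalling, PRKAR2B and PDE5A were lower with both agents, and with Ceefourin 2 alone PRKAR1B fell and GUCY1B1 rose. Of 25 G protein subunits and RGS regulators, RGS1 and RGS18 were lower and RGS9 higher with both agents, and with Ceefourin 2 alone GNG2 fell and GNG11 rose. Among 69 cytokines and their receptors, 5 were higher with both agents and 2 with Ceefourin 2 alone, and IL12A was the only gene of the set. The lists that follow held 1 or 2 of the 69 genes each. With both agents against PMA, calls were 3 lower and 1 higher for integrins, matrix and adhesion (71 tested), 3 lower for small GTPase regulators (60), 5 lower and 2 higher for ion channels (43), 1 lower and 2 higher for other G protein coupled receptors (36), 2 lower for cytoskeleton (61), 2 lower and 4 higher for axon guidance (56) and 3 higher for solute carriers and ABC transporters (58). With Ceefourin 2 alone, integrins, matrix and adhesion had the most lower calls of these lists. ICAM3, ICAM4, SELPLG, ITGB7, ITGAM, CD34, SPN and PECAM1 fell and CD44 rose, at a median log2 fold change of 0.19 over the 71 genes. In the same comparison 1 small GTPase regulator was higher, 1 ion channel lower, 1 cytoskeletal gene lower and 4 higher, and 4 axon guidance genes, 2 carriers and 4 of 38 immediate early genes were higher. The counts with both agents include the genes that the rule chose on that comparison.

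Some of the 69 genes are neighbours. FCER1A and ACKR1 lie 83.2 kb apart on chromosome 1, and with both agents FCER1A stood below and ACKR1 just above its untreated level. CCL23, CCL4 and CCL4L2 lie within the chemokine cluster of chromosome 17, with gaps of 85.6 kb and 105 kb. LST1 and VWA7 lie 177 kb apart on chromosome 6. Chromosome 1 held 15 of the 69 genes (21.7%), against 11.6% of the 958 PMA-induced genes, and chromosome 17 held 10 (14.5%), against 6.89%, with the overlapping and neighbouring genes included.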

How the data were processed

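Stranded, paired-end mRNA libraries were made from MEG-01 cells, per the labels' protocols. Alignment used STAR 2.7 and quantification RSEM 1.3.1 on hg38, per the submitters' processing notes; which annotation release was used, the sources used here do not say. Expected counts per gene, deposited by the authors without normalization, were rounded for testing. TPM values, deposited by the authors from RSEM and scaled for length and depth, gave the levels and the choice of genes. RSEM splits reads that fit several genes, so copies such as CCL4 and CCL4L2 share them.

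The 69 genes and the lists were chosen with earlier results of these data known. Genes were tested in R 4.3.3 with edgeR 4.0.16: filterByExpr left 17314 genes (all 69 among them), TMM factors were 0.9197 to 1.083, and 1 quasi-likelihood fit of all 8 libraries had a mean per group and 4 residual degrees of freedom. The common biological coefficient of variation was 13.6%. Benjamini-Hochberg adjustment ran over all tested genes, and a gene was called below 0.05. Scripts were tested on simulated data. Positions are from GENCODE v29 and promoters from RefSeq. Named with values were the 25 lowest ratios, the 12 highest PMA levels, the 10 largest rises and genes called with Ceefourin 2 alone. List members, all but 1, and genes beside the limit were also named with values. Roles were grouped after the genes were known. DESeq2 1.42.0, limma 3.58.1, other filters, scalings and rule limits, a replicate block and leaving out each library were tried. Leaving out replicate 1 of both PMA groups was added after seeing the data. The text does not describe 1 gene of the set.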

Additional observations from a re-analysis of the deposited data

Results flagged for a closer look

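In 7 of the 69 genes both libraries of Ceefourin 2 alone lay above both untreated libraries. The rule had asked that they be lower with PMA plus Ceefourin 2 than with PMA alone. Both libraries also lay above in 21.7% of all tested genes and in 427 of the other 889 PMA-induced genes. The ratio of Ceefourin 2 to untreated mean TPM was 2.19 in PCDH10, 2.01 in CST7, 1.72 in CALB1, 1.58 in FCGR1B, 1.31 in C21orf91, 1.21 in IL17RE and 1.14 in SUSD3. The difference between the effects of Ceefourin 2 with and without PMA was not tested, and 1 of its sides was fixed by the choice of genes. In edgeR none of the 7 was called higher with Ceefourin 2 alone, and CST7 (edgeR adjusted p = 0.265) and CALB1 (edgeR adjusted p = 0.296) had an unadjusted p below 0.05; without a filter on low counts edgeR called 3 of the 69 genes higher. PCDH10 stood at 0.13 and 0.18 TPM in untreated cells and 0.33 and 0.35 with Ceefourin 2 alone, on 28 and 56 against 76 and 70 expected counts.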

How the results depend on the processing

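Where a number moved, the cause was not tested. With Ceefourin 2 alone, 5 of the 69 genes were called lower; DESeq2 called 15, no filter on low counts 21 (with 3 higher), and a fit of the 2 groups by themselves 3, and the count lay between 2 and 5 with libraries left out. Over all genes, lower and higher calls were 330 and 508 with DESeq2, 478 and 696 without a filter, 16 and 15 in the 2 groups by themselves, and 16 to 85 and 14 to 103 with libraries left out. With both agents against PMA, 67 of the 69 genes were lower without a filter, 23 with limma on log2(TPM + 0.1), and 1 to 38 with libraries left out. All genes gave 351 lower and 448 higher with DESeq2, 526 and 685 without a filter, 69 higher with limma on log2(TPM + 0.1), and 1 to 155 and 0 to 169 with libraries left out. PMA raised 3197 genes with limma on log2(TPM + 1) and lowered 2884 to 4501 with libraries left out. With both agents against Ceefourin 2 alone, GPR85 was not called in the 2 groups by themselves (0 genes lower) and 0 to 1 genes were lower with libraries left out; over all genes 3085 and 3016 were higher with limma on log2(TPM + 0.1) and log2(TPM + 1), and 2946 to 4432 were lower with libraries left out. The 5 genes called with Ceefourin 2 alone kept their direction under every alternative run, and all 69 did in the count fits with all libraries and all tested (63 of 69 with limma on TPM, and 62 or 63 without an untreated or Ceefourin 2 library).

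The rule gave 120 genes at a ratio limit of 0.7, 47 at 0.5, 41 at a floor of 10 TPM and 87 in CPM with TMM (62 of the 69 among them); the median share kept was 24.8% at 0.5 and 44.0% at 0.7. With a library left out it gave 65 to 112 genes and a share kept of 31.0% to 35.9%; 112 came without PMA replicate 1 and 104 without PMA plus Ceefourin 2 replicate 2. Leaving out PMA replicate 2 kept only 48 of the 69 genes (69.6%). Leaving out replicate 1 of PMA plus Ceefourin 2 kept 59, and each of the other 4 libraries of the rule, left out in turn, kept 63 to 69. Genes chosen on replicate 2 had a median ratio of 0.528 in replicate 1, in libraries that the rule for the 69 genes also used.

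With replicate number as a block, 19 of the 69 genes were lower with Ceefourin 2 alone and 61 with both agents against PMA; over all genes the block gave 623 lower and 807 higher, and 661 lower and 821 higher. Differences between replicates 1 and 2 correlated between groups at 0.224 to 0.575 over 9722 genes, but 2 numbers per group do not show that they pair the libraries.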
